A study of Mus musculus with 4 samples.

Results

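The circadian clock genes described here are the 10 genes Arntl, Clock, Per1, Per2, Per3, Cry1, Cry2, Nr1d1, Nr1d2 and Dbp, picked by symbol from the 18436 genes of the deposited expression table as the core loop of the clock and its output. All 10 were present, and all 10 had a mean of at least 0.5 FPKM (fragments counted for a gene relative to its transcript length and to the size of the library), the level a gene needed to be tested. None of the 10 passed the study's threshold (a log2 fold change beyond 1 in size and a p under 0.05 after adjustment over all genes) between Lgr5-CREPT KO and Lgr5-CREPT WT cells. Nr1d1 differed more among individual mice than 98.5% of the genes tested, from 11.3 to 60.1 FPKM, while Arntl and Cry1 were lower and Per3 and Nr1d2 higher in both knockout mice than in both control mice. Those 2 of 10 in each direction were below the shares of all genes tested, 31.0% lower and 25.6% higher. Once the libraries were scaled, Cry1 overlapped between genotypes, while Cry2 and Dbp were higher in both knockout mice. Scaling to the same FPKM total left 1 of 10 lower and 4 higher, beside 23.3% and 36.1% of all genes. Quantile normalisation gave the same counts, beside 25.1% and 31.9%.

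The molecular clock is a feedback loop of transcription. ARNTL (also called BMAL1) and CLOCK bind E-box elements and switch on the Per and Cry genes, whose proteins return to the nucleus and inhibit ARNTL and CLOCK. The same activators switch on Nr1d1 and Nr1d2, which encode the REV-ERB repressors of Arntl, and Dbp, whose protein passes the rhythm on through D-box elements. In a cycling tissue Arntl transcripts therefore peak when Nr1d1 and Dbp transcripts are low, and the intestinal epithelium has such a clock, which responds to feeding and to hormones as well as to light.

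The cells were Lgr5-GFP-high cells, the brightest cells sorted from the intestines of mice that carry Lgr5-EGFP-IRES-creERT2, an allele that makes GFP and a tamoxifen-inducible Cre in the Lgr5-positive stem cells at the crypt base. The control group (Lgr5-CREPT WT, 2 mice) carried that allele alone, and the knockout group (Lgr5-CREPT KO, 2 mice) also carried CREPT fl/fl, in which exon 3 of the gene for CREPT, Rprd1b, can be excised. Tamoxifen was given into the peritoneum of all 4 mice, which were on a C57BL/6 background. Dosing ran at 1 mg per day over 5 successive days, and the cells were taken on day 7. Mice in the study were between 6 and 8 weeks old, of both sexes, and kept under 12 h of light and 12 h of darkness. The Lgr5-EGFP-IRES-creERT2 allele is known to be silent in some crypts, so the sort reads only the crypts where it is active. The hour of sorting is not given in the sources used here, and its part in the values below was not tested. The sex of each mouse is not given either, but Xist and the Y-linked Ddx3y had the female pattern in all 4 mice. Ddx3y was at 0.02 FPKM or lower in every mouse. Xist, transcribed from the inactive X chromosome, was at 100 and 93.7 FPKM in Lgr5-CREPT WT mice 1 and 2 and at 169 and 125 FPKM in Lgr5-CREPT KO mice 1 and 2, above in both knockouts without passing the threshold (log2 fold change 0.58, adjusted p = 0.109 by limma).

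Rprd1b checked the labels. It was at 17.7 and 18.1 FPKM in Lgr5-CREPT WT mice 1 and 2 and at 6.65 and 7.36 FPKM in Lgr5-CREPT KO mice 1 and 2, so the genotypes did not overlap. The log2 fold change of Rprd1b was -1.29 with a standard error of 0.0946, and it passed the threshold (adjusted p = 0.0280 by limma's moderated test). The stem cell markers were also abundant: Olfm4, a marker of crypt base stem cells, lay at 5077 and 4932 FPKM in the control mice and at 5351 and 5181 FPKM in the knockout mice. The libraries were of similar depth, since a single read of a small RNA gene was worth 0.985, 0.991 and 1.03 times its value in Lgr5-CREPT WT mouse 1 in Lgr5-CREPT WT mouse 2 and Lgr5-CREPT KO mice 1 and 2; the absolute depth was not estimated.

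By mean FPKM over the 4 mice, a level per transcript length, the clock genes fell into 3 tiers. The upper tier held Nr1d1 at 31.0, Per1 at 24.9, Arntl at 17.7, Nr1d2 at 12.5 and Clock at 12.1 FPKM, and each of these overlapped its neighbour in that order when single mice were compared. Per2 at 5.35, Cry1 at 3.63 and Per3 at 2.70 FPKM formed the middle tier, again with each overlapping the next, and the highest mouse for Per2, at 6.43 FPKM, lay below the lowest mouse for Clock, at 11.2 FPKM. Cry2 at 1.27 and Dbp at 1.12 FPKM were lowest and overlapped each other, with every Cry2 value below every Per3 value. The median of these means was 8.72 FPKM, against 11.7 FPKM over the 12621 genes tested, and Cry2 and Dbp lay nearest the level required for testing.

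**Figure D1:**
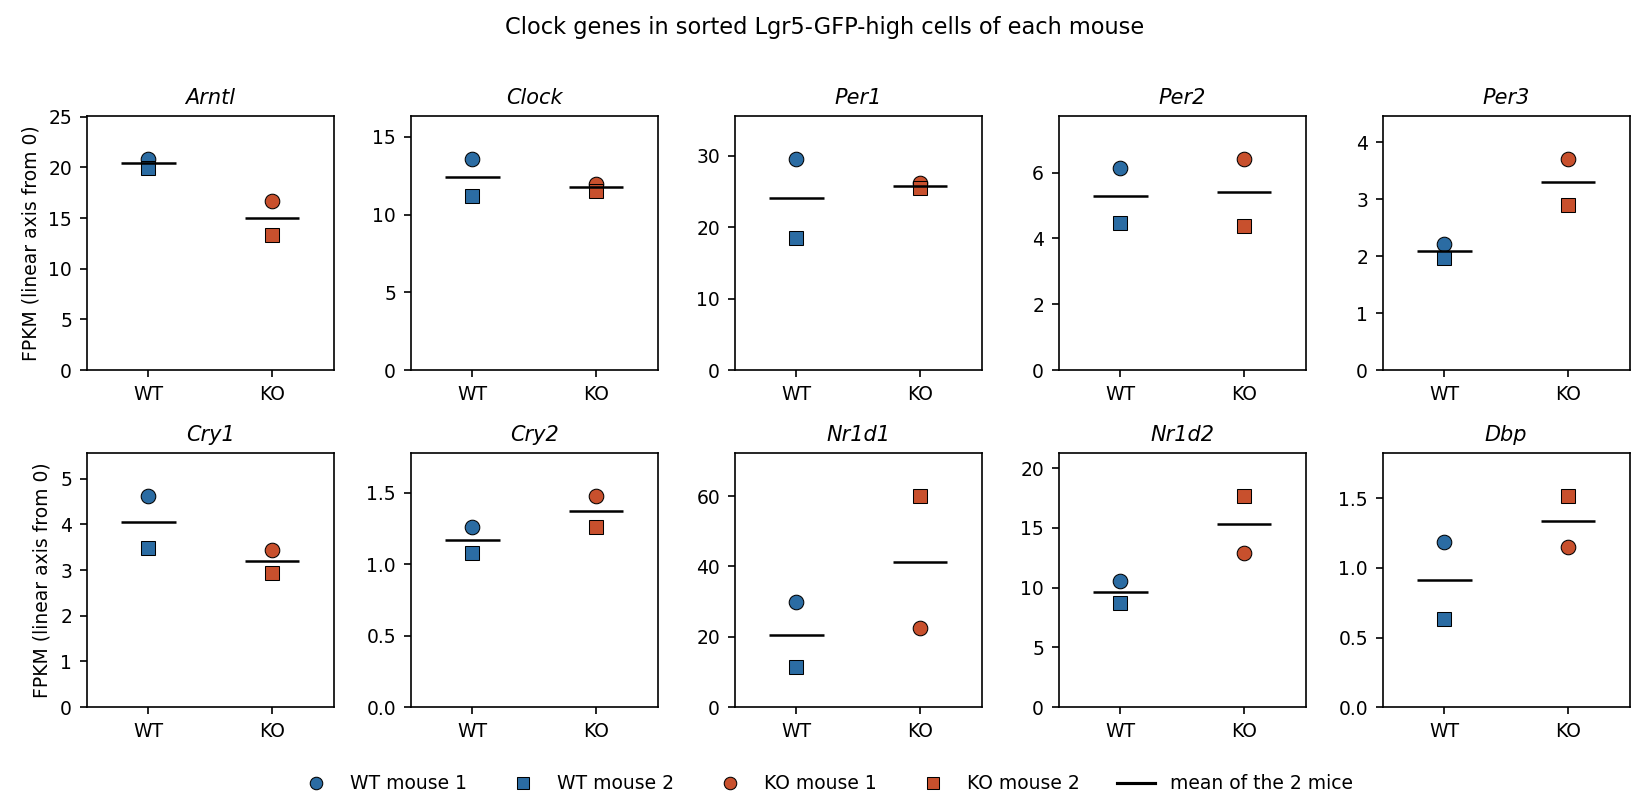
FPKM of each clock gene (vertical axes, linear from 0) in the 2 Lgr5-CREPT WT (blue) and 2 Lgr5-CREPT KO mice (orange), with circles for mouse 1, squares for mouse 2 and a bar at the mean. The genotypes are separate for Arntl, Cry1 (3.49 against 3.44 at the nearest), Per3 and Nr1d2, beside 31.0% of all genes lower and 25.6% higher. After scaling to the same FPKM total Cry1 overlaps, and Cry2 and Dbp are separate and higher in the knockouts. The shares of all genes are then 23.3% lower and 36.1% higher. Nr1d1 has its lowest value, 11.3, in Lgr5-CREPT WT mouse 2 and its highest, 60.1, in Lgr5-CREPT KO mouse 2.

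Promoter windows were searched for the elements through which the clock proteins act. RefSeq windows on GRCm38.p6, each from 250 bases before to 50 bases after an annotated start, were found for 9 of the 10 genes (13 windows), and not for Per2. The searched motifs, on both strands, were the E-box CACGTG, bound by ARNTL and CLOCK, its variant CACGTT, the D-box TTATGTAA and its palindrome TTACGTAA, bound by DBP and its relatives, the cyclic AMP response element TGACGTCA, and AGGTCA, the half-site of many nuclear receptors, REV-ERB proteins included. CACGTG was in 2 of the 13 windows (Per1 and Cry1), and in 7.15% of all 32851 windows. CACGTT was in 3 of the 13 (Cry1, Cry2 and Nr1d1), beside 4.68% of all windows. TTATGTAA was in 1 of the 13 (Per3), beside 0.938%. AGGTCA was in 4 of the 13 (Arntl, Clock, Per1 and Nr1d2), beside 16.3%. Neither TTACGTAA (0.119%) nor TGACGTCA (1.79%) was in any of the 13 windows. These matches describe letters in short windows and do not show binding.

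**Figure D2:**
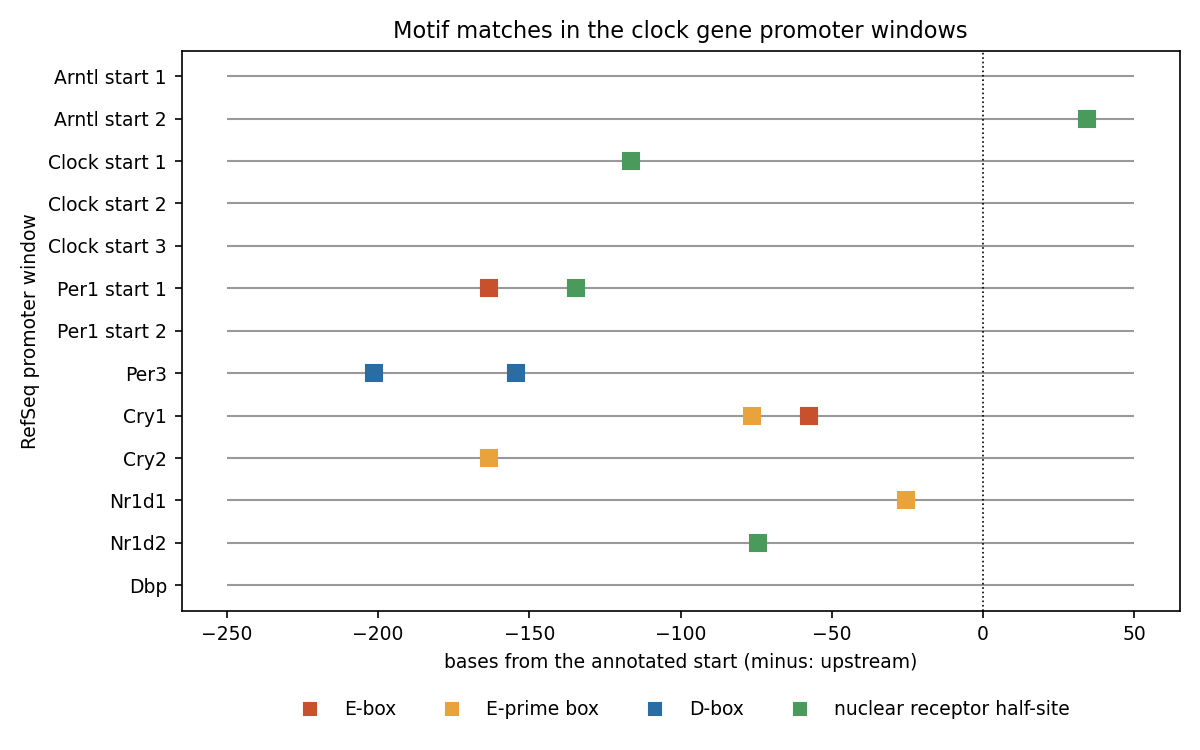
Positions of the motif matches (coloured squares) in each RefSeq promoter window of 9 clock genes, in bases from the annotated start (horizontal axis, upstream to the left). Per3 has its D-box matches at -205 and -158, and Cry1 has its E-box match and that of the variant at -60 and -79.

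Arntl encodes the activator that is indispensable to the loop. Its values were 20.9 and 20.0 FPKM in Lgr5-CREPT WT mice 1 and 2, and 16.6 and 13.3 FPKM in Lgr5-CREPT KO mice 1 and 2. Both knockout mice were below both control mice, and the gap between the control mice was small (0.06 on the log2 scale, against 0.31 between the knockout mice). The log2 fold change, taken on log2(FPKM + 0.5) like all those below, was -0.44 (standard error 0.126, 95% interval -0.77 to -0.12). Its p after adjustment over all 12621 genes tested was 0.123 by limma's moderated test, so Arntl did not pass. Without Lgr5-CREPT KO mouse 2 the fold change was -0.29. With 2 mice in each group an exact two-sided permutation can reach no p smaller than 0.333, and the limma fit instead draws on the variances of all genes.

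Arntl lies on the plus strand of chromosome 7 of GRCm38.p6, from 113178471 to 113314126. The stretch before its first RefSeq start of the window table, chr7:113207215-113207464, is shown because Arntl had the smallest adjusted p of the clock genes. None of the 6 motifs was in it, and the only match near an Arntl start was AGGTCA at bases 32 to 37 after the next start.
Arntl: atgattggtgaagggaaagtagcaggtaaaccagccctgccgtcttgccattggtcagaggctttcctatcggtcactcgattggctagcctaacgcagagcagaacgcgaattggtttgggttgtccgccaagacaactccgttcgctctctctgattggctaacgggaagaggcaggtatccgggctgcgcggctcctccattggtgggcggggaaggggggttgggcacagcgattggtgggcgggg

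Clock encodes the partner that ARNTL binds. It was at 13.6 and 11.2 FPKM in the control mice and at 11.99 and 11.53 FPKM in the knockout mice, so the knockout values fell between the control values. Clock was the steadiest of the 10 genes, with its highest mouse at 1.21 times its lowest. Its log2 fold change was -0.07 (95% interval -0.37 to 0.24, adjusted p = 0.775 by limma), and the sign turned to 0.07 without Lgr5-CREPT WT mouse 1 and to 0.01 when the libraries were scaled to the same FPKM total. The ratio of Arntl to Clock was 1.53 and 1.78 in the control mice and 1.39 and 1.16 in the knockout mice, lower in both knockouts.

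The Per genes encode the scaffolds of the repressor complex, and their values did not run in parallel. Per1, which also responds acutely to light, stress hormones and cyclic AMP in many tissues, was at 29.6 and 18.5 FPKM in Lgr5-CREPT WT mice 1 and 2 and at 26.2 and 25.5 FPKM in the knockout mice. The knockout values lay between the control values, 0.67 apart on the log2 scale, and Lgr5-CREPT WT mouse 2 was the lowest. Per2 was at 6.15 and 4.46 FPKM in the control mice and at 6.43 and 4.37 FPKM in the knockout mice, so the knockout mice spanned the whole range of the 4 mice. Neither gene had a direction: the log2 fold changes were 0.14 for Per1 (adjusted p = 0.751) and 0.02 for Per2 (adjusted p = 0.975), with 95% intervals of -0.44 to 0.71 and -0.59 to 0.62. Without Lgr5-CREPT WT mouse 2 the values turned to -0.20 for Per1 and -0.19 for Per2, and without Lgr5-CREPT KO mouse 1 that of Per2 turned to -0.24.

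Per3, which is dispensable for the core rhythm in mice and is often read as a clock output, was not tested against its paralogs. It was at 2.21 and 1.97 FPKM in Lgr5-CREPT WT mice 1 and 2 and at 3.71 and 2.90 FPKM in Lgr5-CREPT KO mice 1 and 2, above in both knockouts. The log2 fold change was 0.55 (standard error 0.173, 95% interval 0.10 to 0.99, adjusted p = 0.144 by limma), so it did not pass. At this low level the pseudocount of 0.5 FPKM makes the fold change smaller than the ratio of the FPKM values.

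The stretches upstream of Per1 and Per3 show how unlike their windows are. They lie on chr11:69098699-69098947, plus strand, for the first Per1 start of the table, and on chr4:151044666-151044915, minus strand, for Per3. Capitals mark motif matches on either strand: an E-box followed by a nuclear receptor half-site (on the opposite strand) in Per1, and a repeated D-box in Per3.
Per1: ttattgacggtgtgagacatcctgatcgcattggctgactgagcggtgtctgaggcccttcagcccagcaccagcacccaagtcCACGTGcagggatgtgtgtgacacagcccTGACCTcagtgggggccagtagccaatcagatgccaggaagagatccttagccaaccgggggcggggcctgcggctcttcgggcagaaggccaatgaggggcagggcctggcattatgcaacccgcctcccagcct
Per3: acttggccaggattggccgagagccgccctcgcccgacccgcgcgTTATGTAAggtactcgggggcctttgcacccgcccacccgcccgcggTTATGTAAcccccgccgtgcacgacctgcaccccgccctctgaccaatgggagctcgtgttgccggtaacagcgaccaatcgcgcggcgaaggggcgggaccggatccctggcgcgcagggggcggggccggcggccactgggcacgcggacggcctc

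Cry1 and Cry2 encode the cryptochromes, the repressors that bind CLOCK and ARNTL directly. Cry1 was at 4.63 and 3.49 FPKM in Lgr5-CREPT WT mice 1 and 2 and at 3.44 and 2.94 FPKM in Lgr5-CREPT KO mice 1 and 2. The genotypes were separate only by the step from 3.49 to 3.44 FPKM, and they overlapped once the libraries were scaled to the same FPKM total or quantile-normalised. Cry2 was at 1.26 and 1.08 FPKM in the control mice and at 1.48 and 1.26 FPKM in the knockout mice, with a tie between Lgr5-CREPT WT mouse 1 and Lgr5-CREPT KO mouse 2. Those same scalings left Cry2 with both knockout mice above both control mice. The log2 fold changes were -0.30 for Cry1 (95% interval -0.75 to 0.16, adjusted p = 0.370) and 0.16 for Cry2 (95% interval -0.34 to 0.66, adjusted p = 0.657), so neither passed and the opposite signs of the cryptochromes are within their errors. With 1 mouse left out, Cry1 ranged from -0.48 without Lgr5-CREPT WT mouse 2 to -0.12 without Lgr5-CREPT WT mouse 1, and Cry2 from 0.08 without Lgr5-CREPT KO mouse 1 to 0.25 without Lgr5-CREPT KO mouse 2.

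Cry1 was the clock gene with matches to both E-box forms. Its stretch, chr10:85185065-85185304 on the minus strand, ends 10 bases short of the annotated RefSeq start because GENCODE M21 places an exon of Cry1 there, and capitals mark the variant (on the opposite strand) and then the E-box.
Cry1: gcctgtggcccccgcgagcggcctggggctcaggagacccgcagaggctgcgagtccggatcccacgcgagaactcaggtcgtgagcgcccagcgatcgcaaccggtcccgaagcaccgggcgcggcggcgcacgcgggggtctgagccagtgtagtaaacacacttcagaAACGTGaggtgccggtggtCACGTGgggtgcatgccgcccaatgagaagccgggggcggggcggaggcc

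Nr1d1 encodes REV-ERB alpha, the stronger of the repressors that act on Arntl, and it set the widest range of the 10 genes. It was at 29.8 and 11.3 FPKM in Lgr5-CREPT WT mice 1 and 2 and at 22.6 and 60.1 FPKM in Lgr5-CREPT KO mice 1 and 2. The highest mouse was at 5.32 times the lowest. The mice of each genotype differed from each other (1.36 on the log2 scale in the controls and 1.39 in the knockouts) by more than the genotypes did, and the genotypes overlapped. The log2 fold change was 0.98 with a standard error of 0.620 and a 95% interval of -0.61 to 2.58 (adjusted p = 0.391 by limma). Its size depended on which mouse was left out. It was 0.29 without Lgr5-CREPT KO mouse 2 and 0.31 without Lgr5-CREPT WT mouse 2. It was 1.68 without Lgr5-CREPT KO mouse 1 and 1.66 without Lgr5-CREPT WT mouse 1.

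Nr1d2 encodes REV-ERB beta, which overlaps with REV-ERB alpha in function. It was at 10.6 and 8.73 FPKM in the control mice and at 12.9 and 17.7 FPKM in the knockout mice. Both knockout mice were above both control mice, and Lgr5-CREPT KO mouse 2 was again the highest and Lgr5-CREPT WT mouse 2 the lowest. The log2 fold change was 0.63 (standard error 0.183, 95% interval 0.16 to 1.10, adjusted p = 0.128 by limma), short of the threshold. Leaving out Lgr5-CREPT KO mouse 2 brought it to 0.40.

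The upstream stretches of the REV-ERB genes are given because these genes, with Dbp, had their highest values in the same mouse. They lie on chr11:98775378-98775627 for Nr1d1 and chr14:18239128-18239356 for Nr1d2, both on the minus strand. Capitals mark the E-box variant (on the opposite strand) in Nr1d1 and the nuclear receptor half-site in Nr1d2, so the windows shared none of the 6 motifs.
Nr1d1: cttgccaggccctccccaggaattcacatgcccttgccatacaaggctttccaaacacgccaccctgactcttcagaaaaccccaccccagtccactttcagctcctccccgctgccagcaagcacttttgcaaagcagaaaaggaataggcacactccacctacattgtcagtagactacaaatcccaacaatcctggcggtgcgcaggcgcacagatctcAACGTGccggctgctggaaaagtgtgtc
Nr1d2: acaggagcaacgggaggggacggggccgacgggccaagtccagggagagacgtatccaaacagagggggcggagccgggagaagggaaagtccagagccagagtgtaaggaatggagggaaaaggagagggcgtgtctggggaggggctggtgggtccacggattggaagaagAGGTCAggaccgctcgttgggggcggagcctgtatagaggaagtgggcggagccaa

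Dbp, the output gene, was at 1.19 and 0.63 FPKM in Lgr5-CREPT WT mice 1 and 2 and at 1.15 and 1.52 FPKM in Lgr5-CREPT KO mice 1 and 2. Lgr5-CREPT WT mouse 2 was lowest and Lgr5-CREPT KO mouse 2 highest, as for Nr1d1 and Nr1d2. The other mice were almost level and the genotypes overlapped, but both knockout mice were above both control mice once the libraries were scaled to the same FPKM total or quantile-normalised. Its log2 fold change was 0.40 (standard error 0.281, 95% interval -0.32 to 1.12, adjusted p = 0.436 by limma). With 1 mouse left out, it ranged from 0.11 without Lgr5-CREPT WT mouse 2 to 0.69 without Lgr5-CREPT WT mouse 1. At this low level it also moved with the pseudocount, to 0.55 with 0.1 FPKM and to 0.30 with 1 FPKM.

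Genes on the opposite strand limit what can be read from some of these values, since the strand setting of the libraries is not given in the sources used here. Dbp shares 741 annotated bases with Sphk2, a sphingosine kinase gene that was far more abundant, at 24.0 and 26.9 FPKM in the control mice and at 17.1 and 18.8 FPKM in the knockout mice. Sphk2 was lower in both knockout mice (log2 fold change -0.49, adjusted p = 0.0701 by limma). Nr1d1 shares 1075 bases with the end of Thra, the gene of thyroid hormone receptor alpha, which was at 55.9 and 51.3 FPKM in the controls and at 71.3 and 71.1 FPKM in the knockouts (log2 fold change 0.41, adjusted p = 0.0623). Between the knockout mice the gap on the log2 scale was 0.00483 for Thra and 1.39 for Nr1d1. The part of Sphk2 and Thra reads in the values of Dbp and Nr1d1 was not tested. Of the other overlapping genes in the table, Uts2 (over Per3) was at 0.11 FPKM or lower, and so was D930015M05Rik (over Cry2).

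Across the 10 genes, 3 had a negative and 7 a positive log2 fold change, with a median of 0.15 against -0.01 over all genes tested. By the study's threshold, an adjusted p below 0.05 with an absolute log2 fold change above 1, 0 of 10 were called lower and 0 of 10 higher, where limma called 1.01% of all genes tested lower (128 genes) and 0.127% higher (16 genes). With no limit on the fold change the calls remained at 0 of 10 in each direction, beside 2.67% of all genes lower and 0.412% higher. Counting p values below 0.05 without adjustment, 1 clock gene was lower (Arntl) and 2 were higher (Per3 and Nr1d2), beside 15.2% and 9.27% of all genes. Both knockout mice were below both control mice in 2 of the 10 genes (Arntl and Cry1) and above in 2 (Per3 and Nr1d2), beside 31.0% and 25.6% of all genes. With the libraries scaled to the same FPKM total, an alternative added after the values were seen, 1 clock gene was below and 4 were above, beside 23.3% and 36.1% of all genes. Quantile normalisation gave the same counts of clock genes, beside 25.1% and 31.9% of all genes. These shares are near or below the background in each direction apart from the 2 higher genes at the unadjusted p, which is a small count. With any 1 of the 4 mice left out, 1 genotype rests on a single mouse. Calls from such fits cannot show whether the result depended on a particular mouse.

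**Figure D3:**
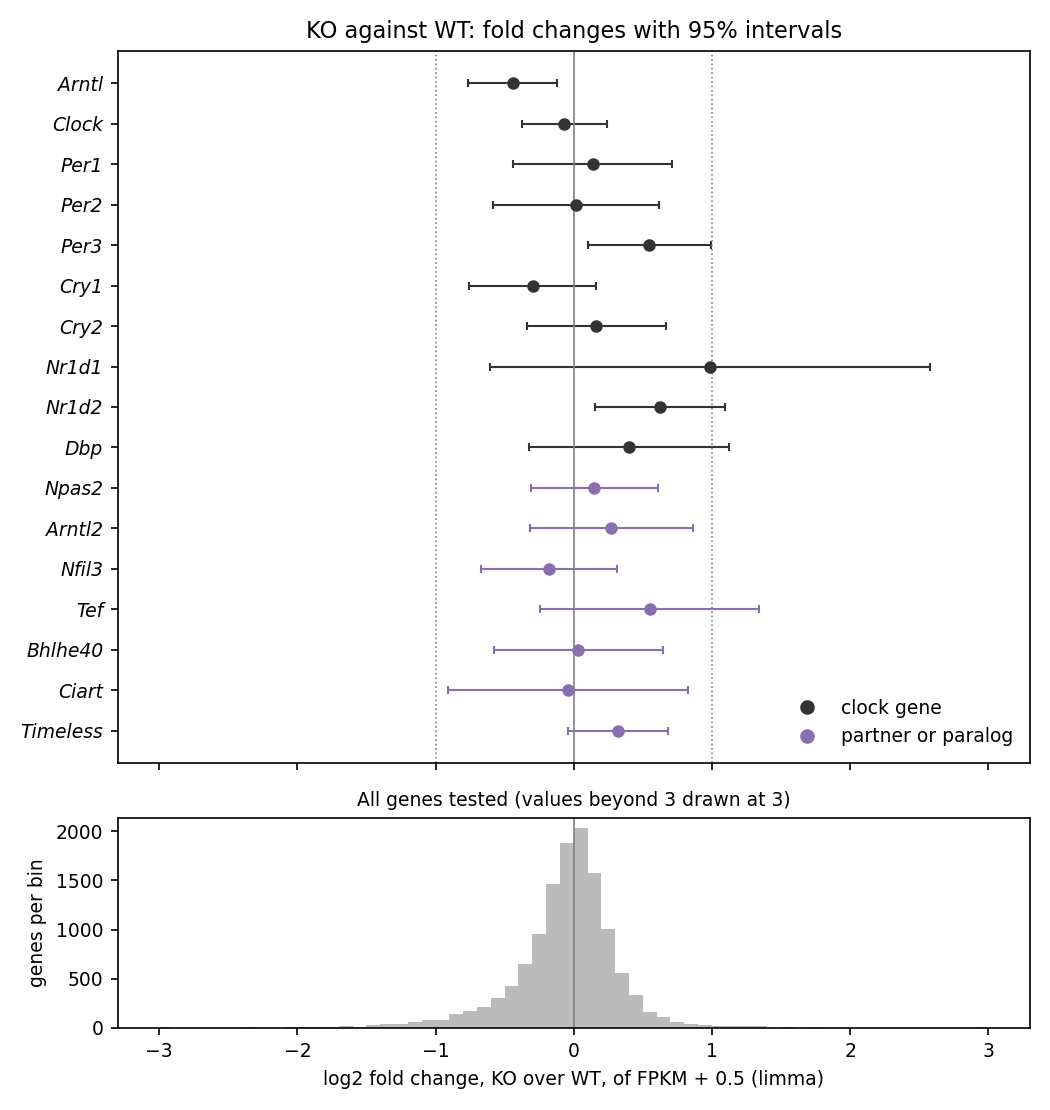
Log2 fold changes of Lgr5-CREPT KO over WT cells (horizontal axis) with 95% intervals from limma for the clock genes (black) and their partners and paralogs (purple), above the distribution over all 12621 genes tested (grey, genes per bin of 0.1). Dotted lines mark the fold limit of the threshold; the intervals of Arntl, Per3 and Nr1d2 do not cross 0, yet none of these genes passed after adjustment.

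The clock genes spread more among mice than the typical gene. The difference between the highest and lowest mouse had a median of 0.65 on the log2 scale over the 10 genes, against 0.35 over all genes tested. Between the control mice alone the median gap was 0.32 against 0.13, and between the knockout mice it was 0.30 against 0.13, so the wider spread was there within each genotype. Lgr5-CREPT WT mouse 2 was the lowest mouse for 7 of the 10 (Clock, Per1, Per3, Cry2, Nr1d1, Nr1d2 and Dbp), beside 26.9% of all genes tested. Lgr5-CREPT KO mouse 2 had the highest Nr1d1, Nr1d2 and Dbp and the lowest Arntl, Per2 and Cry1; these 3 of 10 each way were near the shares of all genes, 24.9% highest and 22.8% lowest in that mouse. The spread was not particular to them: the same median was 0.74 over the glucocorticoid-induced genes, 1.27 over the immediate early genes, 1.42 over the Paneth markers and 2.45 over the tuft markers.

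The limbs of the loop were set against each other by their ratio within a mouse, a comparison chosen after the values were seen. Nr1d1 was at 1.43 and 0.567 times the Arntl level in Lgr5-CREPT WT mice 1 and 2 and at 1.36 and 4.52 times in Lgr5-CREPT KO mice 1 and 2. The highest of these ratios was thus in Lgr5-CREPT KO mouse 2, while Lgr5-CREPT WT mouse 1 and Lgr5-CREPT KO mouse 1 were nearly equal. Nr1d2 was at 0.507 and 0.438 times Arntl in the controls and at 0.774 and 1.33 times in the knockouts. For Dbp the ratios were 0.0570 and 0.0316 in the controls and 0.0691 and 0.114 in the knockouts. All 3 ratios were lowest in Lgr5-CREPT WT mouse 2 and highest in Lgr5-CREPT KO mouse 2, mice of different genotypes. Those of Nr1d2 and Dbp were higher in both knockouts than in both controls, and that of Nr1d1 overlapped. No share over all genes was computed for such ratios. The effects of genotype and of hour on the 3 ratios cannot be told apart with 2 mice a group.

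**Figure D4:**
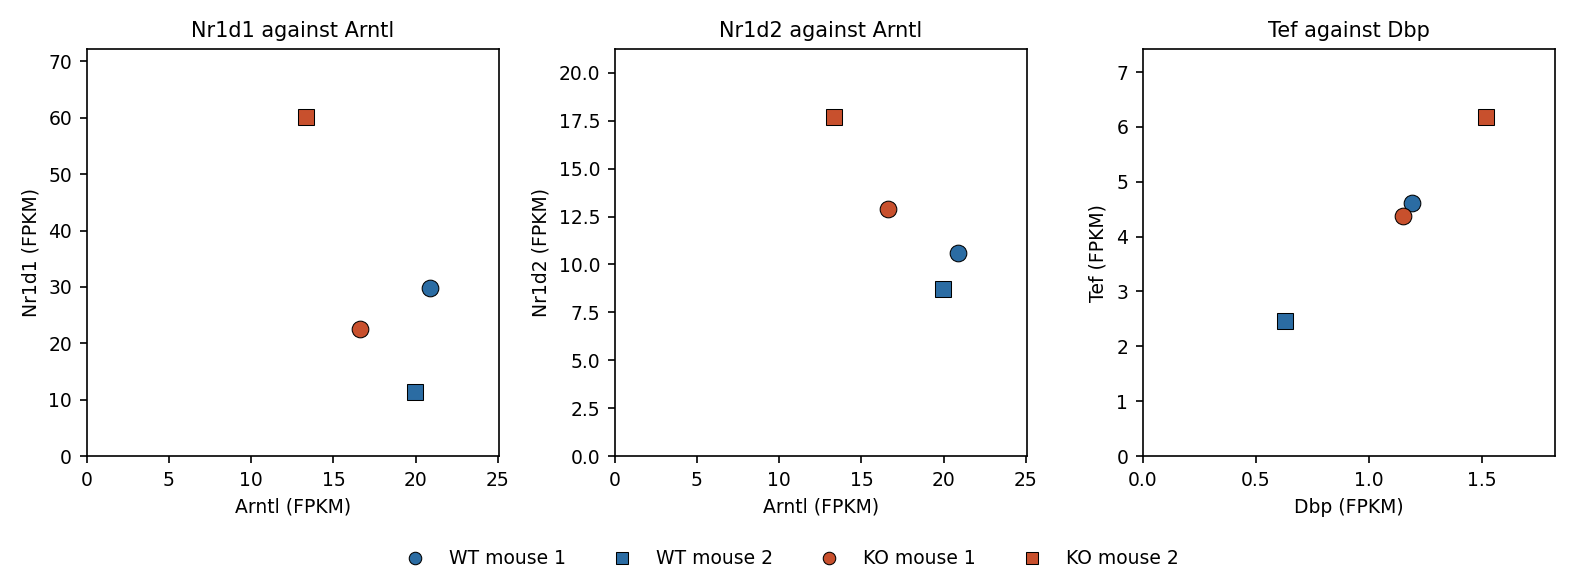
FPKM of Nr1d1 and Nr1d2 against Arntl, and of Tef against Dbp, with a point for each mouse (linear axes from 0; blue for Lgr5-CREPT WT, orange for Lgr5-CREPT KO). Lgr5-CREPT KO mouse 2 combines the highest Nr1d1 and Nr1d2 with the lowest Arntl, and Tef and Dbp put the mice in the same order.

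The order of the mice was then compared with that of other genes, again after the values were seen. The order of Nr1d1, with Lgr5-CREPT KO mouse 2 first, then Lgr5-CREPT WT mouse 1, Lgr5-CREPT KO mouse 1 and Lgr5-CREPT WT mouse 2, was that of 2 clock genes, Nr1d1 itself and Dbp, and of 3.41% of all genes tested. The order of Arntl, control mice first, was that of Arntl and Cry1 and of 5.39% of all genes. By the distance between mean-centred log2 profiles, the closest to Dbp of 8944 genes averaging 5 FPKM or more were Pspc1 (distance 0.0741), Socs3 (0.109) and Xpo4 (0.163), where the median gene was at 0.647. Pspc1 was at 15.1 and 10.6 FPKM in the control mice and at 14.9 and 18.2 FPKM in the knockout mice. The closest to Arntl were Vamp7 (0.0162), Stra13 (0.0430) and Ccdc84 (0.0453), where the median gene was at 0.539. Vamp7 was at 20.3 and 19.4 FPKM in the controls and at 16.1 and 13.1 FPKM in the knockouts. Among the clock genes Nr1d2 was closest to Dbp, at 0.334, and Cry1 to Arntl, at 0.269. Over 4 mice many genes share a profile, so this likeness is a description only. At the low level of Dbp the pseudocount of 0.5 FPKM also narrows its profile more than those of the genes compared.

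Of the partners and paralogs of the clock genes, 11 were read here and 7 were at a testable level, of which 0 were called lower and 0 higher. The other 4 were at 0.16 FPKM or lower in every mouse. Tef, a relative of Dbp, was at 4.61 and 2.47 FPKM in the controls and at 4.38 and 6.18 FPKM in the knockouts, the order of Dbp and Nr1d1. Its log2 fold change of 0.55 was the largest of these genes and did not pass (adjusted p = 0.340 by limma). Timeless was at 12.7 and 9.93 FPKM in the controls and at 14.8 and 13.5 FPKM in the knockouts (0.32, adjusted p = 0.246). Arntl2, a paralog of Arntl, was at 0.87 and 0.73 FPKM in the controls and at 0.91 and 1.24 FPKM in the knockouts (0.27, adjusted p = 0.517). Timeless and Arntl2, 2 of the 7 genes, were above in both knockout mice, beside 25.6% of all genes tested. Lgr5-CREPT WT mouse 2 was lowest for 6 of the 7 genes, beside 26.9% of all genes tested. The 7 genes had a median log2 fold change of 0.15 and a median range of 0.55 over the mice, against 0.65 for the clock genes.

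The enzymes and co-repressors that act on clock proteins were steadier. All 11 were tested and 0 were called in either direction, with a median log2 fold change of 0.07 and a median range of 0.23. Ncor1, the co-repressor that REV-ERB recruits, was at 49.95 and 48.73 FPKM in the control mice and at 61.8 and 59.9 FPKM in the knockout mice. It was higher in both knockouts with a log2 fold change of 0.30, and its adjusted p of 0.0834 was the smallest of the 48 pathway genes tested. Btrc, a ubiquitin ligase adaptor for PER proteins, was at 3.02 and 2.78 against 3.63 and 3.49 FPKM (0.26, adjusted p = 0.301), and the kinase gene Csnk1d was at 56.3 and 60.0 against 66.0 and 61.7 FPKM (0.13, adjusted p = 0.355).

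Output genes of the intestinal clock, 10 of 10 tested, also gave 0 calls in each direction, with a median log2 fold change of 0.08. Abcb1a, which encodes an efflux pump, had the largest difference, at 10.4 and 7.84 FPKM in the controls and 5.85 and 8.55 FPKM in the knockouts (-0.33, adjusted p = 0.418). Wee1, the kinase that couples the clock to entry into mitosis, was at 26.8 and 28.4 against 38.7 and 29.8 FPKM (0.29, adjusted p = 0.271). The glucose transporter gene Slc5a1 was at 59.3 and 76.5 against 78.2 and 85.3 FPKM (0.28, adjusted p = 0.294). Neither Wee1 nor Slc5a1 had the mouse order of Nr1d1, Dbp or Arntl.

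Glucocorticoids and acute stimuli reset the clock in peripheral tissues, so genes that they induce were read beside it. Of 10 glucocorticoid-induced genes, all tested, 0 were called in either direction (median log2 fold change 0.19). Fkbp5 was at 16.8 and 37.5 FPKM in Lgr5-CREPT WT mice 1 and 2 and at 80.2 and 31.3 FPKM in Lgr5-CREPT KO mice 1 and 2 (0.98, adjusted p = 0.349). Zbtb16 was at 1.25 and 9.44 against 8.82 and 4.86 FPKM (0.76, adjusted p = 0.626). Both were lowest in Lgr5-CREPT WT mouse 1, unlike any clock gene. Sgk1, which was at 38.8 and 17.7 against 36.8 and 34.6 FPKM (0.44, adjusted p = 0.503), was lowest in Lgr5-CREPT WT mouse 2 like Per1, as were 7 of the 10.

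Immediate early genes, switched on within minutes by many stimuli, including those that induce Per1, were also mostly low in Lgr5-CREPT WT mouse 2. Of 12 genes tested, 10 were lowest in that mouse and 10 were highest in Lgr5-CREPT WT mouse 1, and Per1 and Clock had the same extremes. Their summed level was 3198 and 1435 FPKM in Lgr5-CREPT WT mice 1 and 2 and 2725 and 2603 FPKM in Lgr5-CREPT KO mice 1 and 2. The list had 0 calls in either direction and a median log2 fold change of 0.24. Nr4a1 was at 108 and 14.8 FPKM in the controls and at 57.3 and 80.7 FPKM in the knockouts (0.75, adjusted p = 0.661), and Fosb was at 275 and 90.9 against 270 and 240 FPKM (0.68, adjusted p = 0.461). Btg2 departed from this, at 73.6 and 44.9 against 35.5 and 26.1 FPKM (-0.91, adjusted p = 0.134), and had the mouse order of Arntl. The part of acute stimulation, during life or while cells were prepared, in the spread of Per1 and the REV-ERB genes was not tested.

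**Figure D5:**
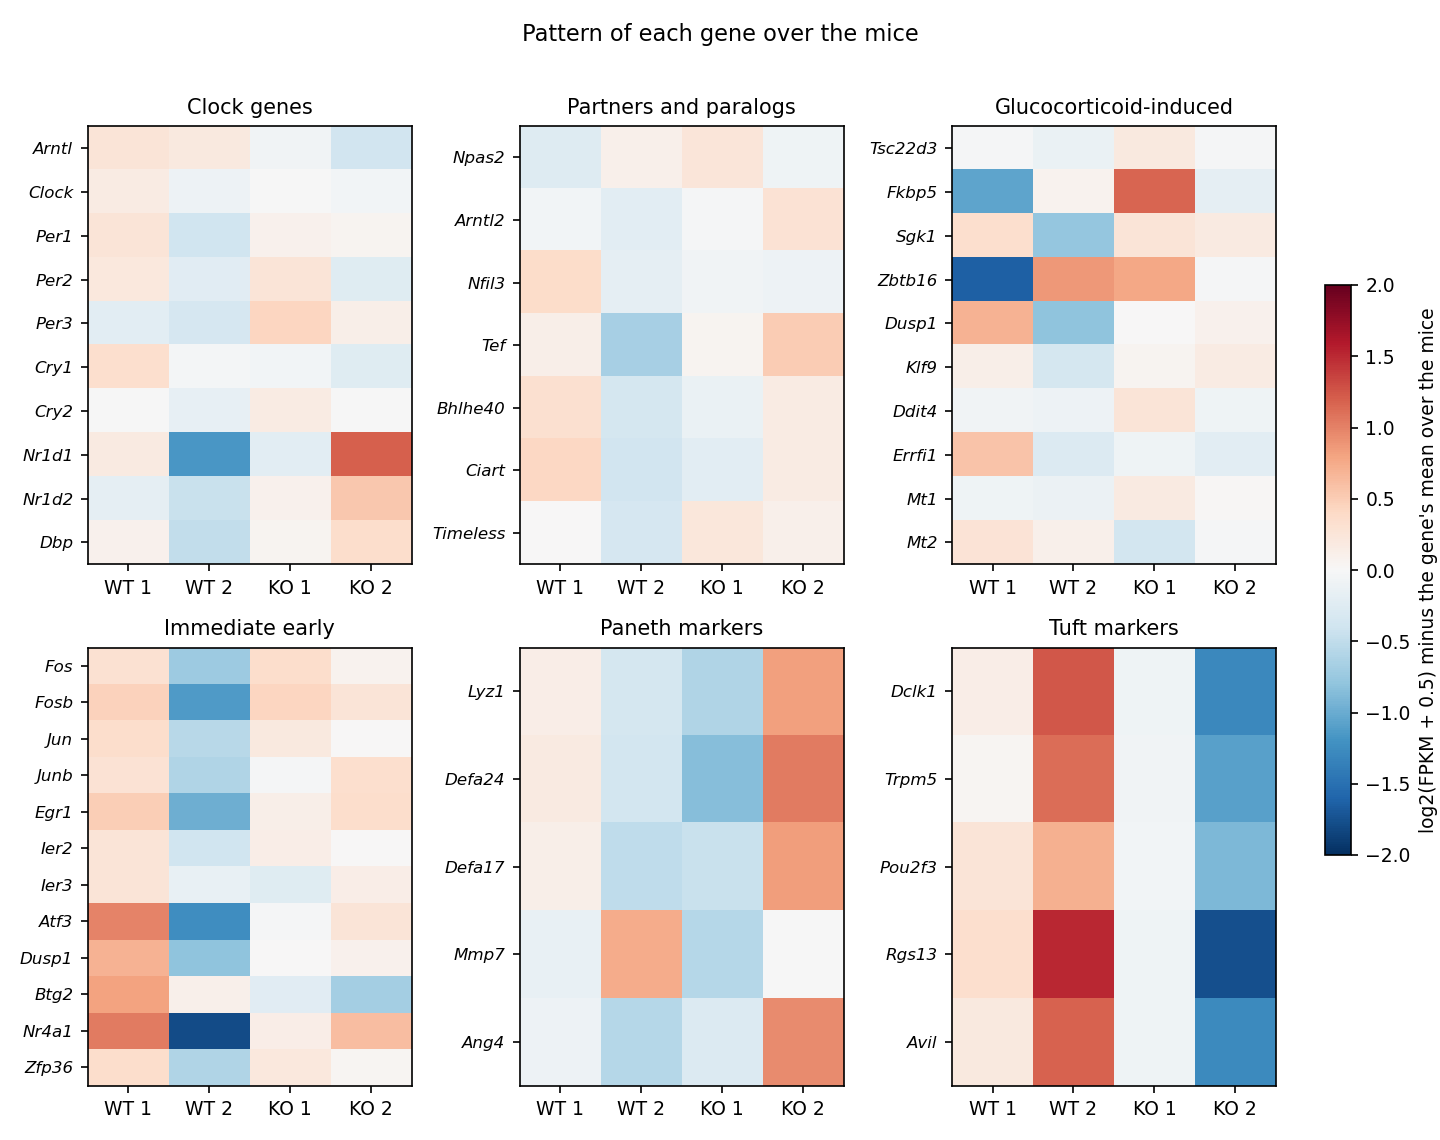
Log2(FPKM + 0.5) of each gene minus its mean over the 4 mice (colour; red above, blue below) for the clock genes, partners, glucocorticoid-induced and immediate early genes, and Paneth and tuft markers. Lgr5-CREPT WT mouse 2 is the lowest for 7 of the 10 clock genes and 10 of the 12 immediate early genes, and Lgr5-CREPT KO mouse 2 is high for the REV-ERB genes and for 4 of the 5 Paneth markers and low for the tuft markers.

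Markers of other cell types differed among the same mice. The summed level of the 5 Paneth markers was 1269 and 908 FPKM in Lgr5-CREPT WT mice 1 and 2 and 734 and 2176 FPKM in Lgr5-CREPT KO mice 1 and 2. It was highest where Nr1d1, Nr1d2 and Dbp were highest; 4 of the 5 genes were highest in that mouse, among them the most abundant, Defa24, at 592, 406, 289 and 1081 FPKM in the same order. Tuft markers went the other way, with a sum of 21.3 and 43.8 FPKM in the controls and 17.2 and 6.42 FPKM in the knockouts; all 5 were highest in Lgr5-CREPT WT mouse 2 and lowest in Lgr5-CREPT KO mouse 2, as was the most abundant, Avil, at 5.32, 10.9, 4.26 and 1.59 FPKM. Enterocyte markers summed to 157 and 248 FPKM in the controls and to 142 and 299 FPKM in the knockouts, with Fabp1 the most abundant at 63.6, 87.1, 60.4 and 92.7 FPKM, and 5 of 6 were highest in Lgr5-CREPT KO mouse 2. These markers were read in cells sorted as Lgr5-GFP-high. In bulk RNA, fewer cells of a type and less RNA per cell cannot be told apart. The part of other cell types in the clock gene values was not tested.

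Several markers separated the genotypes, as the values of Arntl, Per3 and Nr1d2 did, and all 5 tuft markers were lower in both knockouts. Cry1 did so only by the step from 3.49 to 3.44 FPKM, and not after scaling. Over all genes tested, 31.0% were lower and 25.6% higher in both knockouts, and 1.01% were called lower and 0.127% higher. Enteroendocrine markers summed to 170 and 191 FPKM in the control mice and to 50.6 and 63.8 FPKM in the knockout mice; all 7 were lower in both knockouts and 5 were called lower, Chgb, the most abundant, among them (64.7, 59.3, 22.9 and 32.0 FPKM). Goblet markers summed to 1252 and 2098 FPKM in the controls and to 691 and 847 FPKM in the knockouts, with 1 of 6 called lower and Tff3 the most abundant (537, 937, 300 and 324 FPKM). The 5 stem cell markers were higher in both knockouts, with 0 called, and summed to 5447 and 5278 against 5789 and 5620 FPKM. Leukocyte markers overlapped between the genotypes in 4 of the 5 tested and summed to 10.6 and 11.4 FPKM in the controls and to 5.73 and 15.4 FPKM in the knockouts, with Cd68 the most abundant at 6.50, 5.21, 4.20 and 4.58 FPKM and 4 of the 5 tested highest in Lgr5-CREPT KO mouse 2. Stromal and endothelial markers, led by Pecam1, were at 0.20 FPKM or lower in every mouse. The part of these shifts in the differences of Arntl, Per3, Cry1 and Nr1d2 was not tested.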

How the data were processed

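The sorted cells of each mouse gave 1 library. The authors deposited FPKM values, rounded to 2 decimals, with 1 column per mouse, and columns were matched to mice by sample title. In the study's methods, whose sequencing part speaks of crypts and intestines rather than of sorted cells, reads were aligned by Bowtie2 to GRCm38.p6 reference transcripts and genes were quantified with RSEM; the submitters' processing notes also name HISAT and mm10. Versions are not given in the sources used here. Genes averaging 0.5 FPKM or more (12621 of 18436) were tested on log2(FPKM + 0.5) with limma 3.58.1 (lmFit, eBayes with an intensity trend) in R 4.3.3, with Benjamini-Hochberg adjustment over all genes tested. The study's methods name a count model; it needs counts, so limma replaced it at the same threshold. From the list of partners and paralogs, 1 gene is not reported here. The procedure was tested on simulated data. The members and lists were chosen with earlier results of these data known. Genes named were all 10 clock genes, Rprd1b, the 3 members of each pathway list with the largest absolute log2 fold change and any called, the most abundant member of each marker list, the 3 genes closest in profile to Dbp and to Arntl, and genes whose span overlaps a clock gene; Xist, Ddx3y, the ratios and the orders of mice were chosen after the values were seen. Sequences and coordinates came from RefSeq on GRCm38.p6 and exons and strands from GENCODE M21; other steps ran in Python 3.11.15 (scipy 1.17.1, pandas 2.3.3). The pseudocount, filter, scaling, small RNA genes, trend, replicate block, left-out mice and fold limit were varied.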

Additional observations from a re-analysis of the deposited data

How the results depend on the processing

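No clock gene and no pathway gene was called under any alternative, and Arntl, Per3, Cry1, Cry2, Nr1d1, Nr1d2 and Dbp kept their sign in all 13 refits. Clock turned to 0.00719 with libraries scaled to the same FPKM total and to 0.0660 without Lgr5-CREPT WT mouse 1, in a range from -0.20 with each mouse left out; Per1 ranged from -0.20 to 0.47 and Per2 from -0.24 to 0.27. The counts over all genes moved more. Without the filter on low values limma called 0 lower and 0 higher, without the intensity trend 4 lower and 0 higher, and with no fold limit 337 lower and 52 higher; for the reversals and for the filter and trend the cause was not tested. With each mouse left out in turn, the lone mouse being assumed to vary like the others, it called 0 to 0 lower and 0 to 0 higher, fewer mice entering the fit. A replicate block gave 101 lower and 8 higher; the numbers are shared by different animals, whose deviations had a correlation of -0.0266 across genes, and no clock gene was called with it. By scalings added after the data were seen, 5 clock genes did not overlap between genotypes, 1 lower and 4 higher, in place of 4, with 2 lower and 2 higher, while the shares of all genes moved the same way. With 2 mice a group and an unstated hour of sorting, differences between mice and between genotypes are hard to separate, and the number of reads behind Dbp and Cry2 is not known.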
